A study of Solanum tuberosum with 6 samples.

Results

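Lipoxygenases are the enzymes that add oxygen to linoleic and α-linolenic acid, and 3 of their genes were followed here in potato leaf, out of 114281 genes in the deposited table. They are StLOX2S Soltu.Atl.03_0G008370, a further StLOX2S gene, Soltu.Atl.12_4G014470, and StLOX1_5 Soltu.Atl.01_4G023960. The enzyme names are those given by the study, and the genes were taken because the study lists them among the genes that differed between cold and control leaves of Atlantic or KY140. All 3 identifiers were present in the table.

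In plants, 13-lipoxygenases, the class that KEGG names LOX2S, make the hydroperoxide of α-linolenic acid from which allene oxide synthase (AOS), allene oxide cyclase (AOC), OPDA reductase and OPC-8:0 CoA ligase (OPCL1) lead to jasmonate, a hormone of wounding, defence and stress. The 9-lipoxygenases, the class of LOX1_5, oxygenate the same fatty acids at another carbon and feed other oxylipins. Leaves are known to make both kinds of product after injury of their membranes.

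Leaf RNA of virus-free tissue culture seedlings of the cultivars Atlantic, KY130 and KY140 was sequenced after poly(A) selection. Seedlings were grown for 18 days on MS medium, at about 2500 lx and 16 h of light per day, and were then held for 12 h at 25°C (groups Atlantic, KY130 and KY140) or at −4°C (groups CS-Atlantic, CS-KY130 and CS-KY140, where CS is cold stress). All groups carry the genotype label WT. The study treats Atlantic as cold resistant and KY140 as cold sensitive, and no class is given for KY130, which the study does not report. For each of the 6 groups the labels hold 1 record and the table holds 3 numbered columns, which makes 18 libraries. Whether the 3 libraries of a group came from separate exposures is not stated for KY130, so that p-values may cover only the spread between these libraries. In whole leaf, fewer cells of a type and less RNA per cell cannot be told apart.

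Library totals were 11047494 to 14971945 counts, and 45305 to 74628 genes had at least 1 count in a library. The table names no leaf marker genes, so the tissue label was not checked. The identifiers (Soltu.Atl) are those of the annotation of Atlantic, in which the chromosome copies of this tetraploid are listed separately. Reads from near-identical copies can be split among them in an unknown way, so the value of any single copy is uncertain. KY130 and KY140 were thus counted on gene copies of another cultivar. The part of this in the differences between cultivars given below was not tested. Levels are given as CPM, counts per 1000000 reads of a library size scaled by TMM, and are compared between libraries of 1 gene, not between genes, because gene lengths were not used here.

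StLOX2S Soltu.Atl.03_0G008370 was low in untreated leaves and higher in the cold libraries of every cultivar. In Atlantic it had 0.255, 0.156 and 0.416 CPM, from 3, 2 and 5 counts, and in CS-Atlantic 18.0, 11.7 and 14.7 CPM. In KY140 the libraries had 0.311, 0.780 and 2.75 CPM, and those of CS-KY140 47.9, 27.6 and 74.5 CPM. In KY130 the values were 1.07, 0.459 and 0.0760 CPM, from 13, 6 and 1 counts, and in CS-KY130 4.13, 3.37 and 4.31 CPM, from 47, 37 and 49 counts. Cold and control libraries of this gene did not overlap in any of the 3 cultivars. The same held, in either direction, for 31.1% of the genes tested in Atlantic, 20.4% in KY130 and 20.8% in KY140.

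The mean level of Soltu.Atl.03_0G008370 was highest in CS-KY140, at 50.0 ± 23.5 CPM (SD, n = 3), followed by CS-Atlantic at 14.8 ± 3.16 CPM and CS-KY130 at 3.94 ± 0.496 CPM. The 3 cold groups did not overlap each other, and the lowest of them, CS-KY130, lay above the highest KY140 library. The share of all genes with no overlap between cultivars was not computed, so this separation has no background to be read against. Under cold, the mean of KY140 was 3.37 times that of Atlantic and 12.7 times that of KY130. With 1 library left out, these ratios ran from 2.55 to 4.13 and from 9.59 to 15.6. Both were lowest without CS-KY140 replicate 3 and highest without CS-KY140 replicate 2. The untreated groups followed with 1.28 ± 1.30 CPM in KY140, 0.536 ± 0.503 CPM in KY130 and 0.276 ± 0.131 CPM in Atlantic. Neighbours among these 3 overlapped and lay closer together than the larger of their SDs, so their order is not resolved. These levels are a description, since the gene was chosen on 4 of the 6 groups, and differences between cultivars were not tested.

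StLOX2S Soltu.Atl.12_4G014470 had a different distribution, with its highest level in untreated KY140. The KY140 libraries had 46.5, 26.7 and 52.4 CPM, from 598, 308 and 667 counts, and the CS-KY140 libraries had 19.4, 21.1 and 18.6 CPM. In KY140, then, this gene was lower in each cold library than in any untreated one, while Soltu.Atl.03_0G008370 was higher in each. Of the genes tested in KY140, 20.8% had no overlap, in either direction. In Atlantic, Soltu.Atl.12_4G014470 had 0 counts in all 3 untreated libraries, and in CS-Atlantic 5.18, 1.83 and 0 CPM, from 58, 20 and 0 counts. In KY130 the values were 1.73, 3.90 and 3.57 CPM, and in CS-KY130 0, 0.182 and 4.92 CPM, from 0, 2 and 56 counts.

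The cold libraries of Atlantic and KY130 were thus split for Soltu.Atl.12_4G014470, with some at or near 0 and others at several CPM. The 2 CS-KY130 libraries with 0 and 2 counts had 50417 and 56550 genes with a count, against 72029 in the CS-KY130 library with 56 counts. The CS-Atlantic library at 0 had 65796 such genes, against 72049 in that with 58 counts and 74628 in that with 20 counts. The part of this difference between libraries in the values of the gene was not tested. In untreated KY140, the libraries with 45305, 53368 and 65787 genes had 46.5, 52.4 and 26.7 CPM. Those of untreated KY130 with 60017, 66743 and 68376 genes had 3.90, 1.73 and 3.57 CPM.

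By group, Soltu.Atl.12_4G014470 had 41.9 ± 13.5 CPM (SD, n = 3) in KY140 and 19.7 ± 1.29 CPM in CS-KY140. KY130 had 3.07 ± 1.17 CPM, CS-Atlantic 2.34 ± 2.62 CPM, CS-KY130 1.70 ± 2.79 CPM and Atlantic 0 CPM. The KY140 libraries did not overlap those of CS-KY140, as was so, in either direction, for 20.8% of the genes tested in KY140. Nor did the CS-KY140 libraries overlap those of KY130, a pair that differs in cultivar and temperature. The share of all genes with no overlap was not computed for that pair. Neighbours among the lower 4 groups overlapped, and their order is not resolved. At 25°C the KY140 mean was 13.6 times the KY130 mean, and 11.2 to 16.1 times with 1 library left out. No ratio is given under cold, where 56 of the 58 CS-KY130 reads came from replicate 3.

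StLOX1_5 Soltu.Atl.01_4G023960 was detected in every library, with the cold mean above the untreated mean in all 3 cultivars. In Atlantic it had 3.99, 10.6 and 7.74 CPM and in CS-Atlantic 52.4, 23.8 and 45.6 CPM, without overlap. In KY140 it had 12.9, 26.2 and 3.46 CPM and in CS-KY140 37.7, 33.8 and 114.5 CPM, also without overlap, though 26.2 and 33.8 CPM are close. In KY130 it had 8.43, 3.37 and 13.4 CPM and in CS-KY130 35.2, 13.3 and 25.6 CPM. There the lowest cold library and the highest untreated one overlapped by a small margin. Of the genes tested, 31.1% in Atlantic and 20.8% in KY140 had no overlap, in either direction.

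The group means of StLOX1_5 formed 1 run of cold groups above untreated groups. CS-KY140 had 62.0 ± 45.5 CPM (SD, n = 3), CS-Atlantic 40.6 ± 14.9 CPM and CS-KY130 24.7 ± 11.0 CPM. KY140 had 14.2 ± 11.4 CPM, KY130 8.39 ± 5.00 CPM and Atlantic 7.45 ± 3.32 CPM. Every pair of neighbours in this order overlapped. The step from CS-Atlantic to CS-KY130, 15.9 CPM, was slightly larger than the larger SD of the pair, and the other steps were smaller than theirs. Replicate 3 of CS-KY140 carried much of its group's mean, at 3.20 times the average of the other libraries of the group for StLOX1_5, against 1.97 times for Soltu.Atl.03_0G008370 and 0.919 times for Soltu.Atl.12_4G014470.

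**Figure D1:**
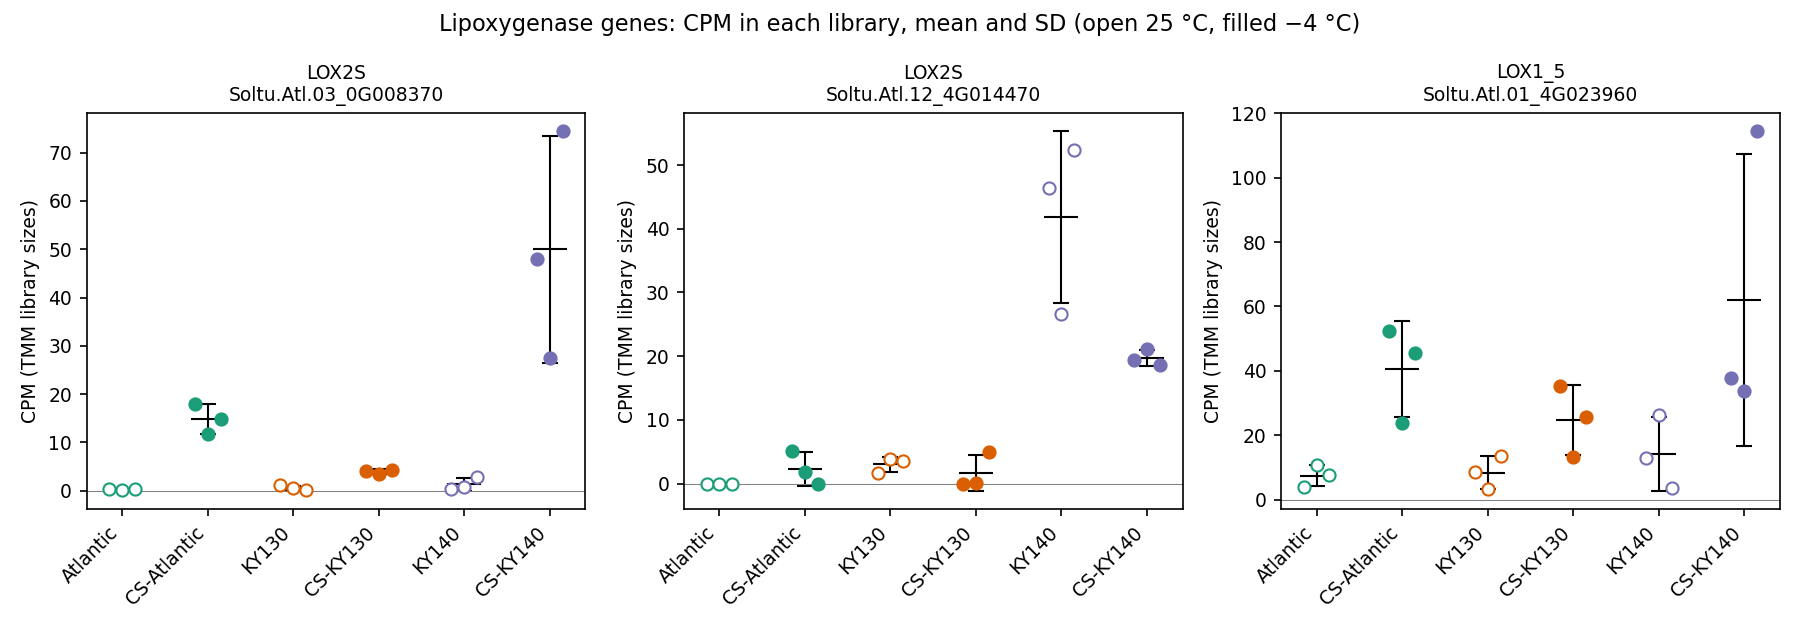
CPM (TMM library sizes, linear axis) of the 3 lipoxygenase genes in each of the 18 libraries, with open points at 25°C, filled points at −4°C, and lines for the mean and SD of 3 libraries. Soltu.Atl.03_0G008370 is highest in CS-KY140 (50.0 CPM) and Soltu.Atl.12_4G014470 in untreated KY140 (41.9 CPM), and 1 CS-KY140 library stands above the others for StLOX1_5 (114.5 CPM).

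No KY130 library entered the study's comparisons that listed these genes, and the cold response of KY130 was therefore tested. Earlier results of these data were known when the genes were taken up here, so the test is not fully independent of their choice. A gene was called if its log2FC (cold minus 25°C) was at least 1 in size with an FDR (Benjamini-Hochberg) under 0.05 by edgeR's quasi-likelihood test, the study's thresholds. None of the 3 genes was called by edgeR or by DESeq2, where edgeR called 0.928% of the 48717 genes tested and DESeq2 called 4.28%. At an unadjusted p under 0.05 there was 1 member by edgeR, StLOX1_5, and there were 2 by DESeq2, both of them with a positive log2FC. Of all genes tested, 10.8% had such a p by edgeR and 13.2% by DESeq2.

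Soltu.Atl.03_0G008370 had the largest fitted difference of the 3 in KY130, with a log2FC of 2.86 (SE 1.28, 95% interval −0.04 to 5.76). The fitted fold is 7.26, and edgeR's quasi-likelihood test gave an unadjusted p of 0.05237 and an adjusted p of 0.4715. Its log2FC was above that of 97.6% of the genes tested, whose median was −0.07. In summed counts it went from 20 to 133 reads, a depth-scaled ratio of 6.95 with an exact interval of 4.32 to 11.7 that covers counting error only. All 3 cold libraries lay above all 3 untreated ones, as cold and untreated libraries also did, in either direction, for 20.4% of the genes tested in KY130. The untreated libraries of the gene spread from 1 to 13 counts, and without KY130 replicate 1, the highest of them, the log2FC was 3.81, and without KY130 replicate 3, the lowest, it was 2.32.

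StLOX1_5 had a log2FC of 1.57 in KY130 (SE 0.57, 95% interval 0.28 to 2.87), a fold of 2.98. Its edgeR p was 0.0227 and its adjusted p 0.3337, and its log2FC was above that of 91.6% of the genes tested. The reads of the 3 libraries summed to 322 in KY130 and 838 in CS-KY130. The interval lay above 0, but the adjusted p did not pass, and the libraries of the groups overlapped.

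Soltu.Atl.12_4G014470 had a log2FC of −0.88 in KY130 (SE 1.65, 95% interval −4.60 to 2.83), with an edgeR p of 0.6041 and an adjusted p of 0.9333. Summed reads were 119 in KY130 and 58 in CS-KY130, and 56 of the latter came from CS-KY130 replicate 3. Without that library the log2FC was −4.95, with an edgeR adjusted p of 0.2245. It was −0.29 without CS-KY130 replicate 1 and −0.35 without CS-KY130 replicate 2. A single library thus set the size of this value, and the interval holds differences in both directions.

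The cold contrasts of Atlantic and KY140 selected the genes, so their values are given as a description. In Atlantic, 2 of the 3 genes had enough counts for the fit and both met the call in the higher direction, where 8.1% of 57775 genes met it in either direction and 5.79% as higher. In KY140, 1 of 3 did, where 1.04% of 47973 genes met it in either direction and 0.886% as higher. The corresponding share of higher genes in KY130 was 0.844%. Cold and untreated libraries did not overlap in 31.1% of the genes tested in Atlantic and in 20.8% in KY140.

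Soltu.Atl.03_0G008370 had a log2FC of 5.78 in Atlantic (SE 0.54, 95% interval 4.58 to 6.98) and of 5.24 in KY140 (SE 0.81, 95% interval 3.41 to 7.06). The untreated counts behind the Atlantic value sum to 10, which gives a ratio of summed reads of 53.0 with a counting interval of 28.6 to 111. The KY140 ratio was 34.7, with a counting interval of 26.1 to 47.2. Its KY140 call was lost without KY140 replicate 2, CS-KY140 replicate 1 or CS-KY140 replicate 3, and the log2FC was 6.51 without KY140 replicate 3. The 2 fitted values lie within each other's intervals, and the KY130 interval reaches up to 5.76. Whether the response differed between cultivars was not tested.

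StLOX1_5 had a log2FC of 2.53 in Atlantic (SE 0.42, 95% interval 1.59 to 3.47) and of 2.13 in KY140 (SE 0.71, 95% interval 0.53 to 3.73). Without replicate 3 of CS-KY140, its KY140 log2FC was 1.35, and without replicate 2 of KY140 it was 2.85. Its Atlantic call was lost in the joint fit of all libraries (edgeR adjusted p of 0.09876). In KY140 it was not called by edgeR, but it was by DESeq2 (adjusted p of 0.04263) and by edgeR with no filter (adjusted p of 0.0002438). Soltu.Atl.12_4G014470 had a log2FC of −1.13 in KY140 (SE 0.38, 95% interval −1.99 to −0.27), and its reads summed to 1573 at 25°C and 761 under cold. It was not called there by edgeR (adjusted p of 0.2722) or by DESeq2 (adjusted p of 0.1459). In Atlantic it had too few counts to pass the filter. In the alternatives that did fit it, it was called without CS-Atlantic replicate 3, the library at 0, with an edgeR adjusted p of 0.04637. It was not called with no filter, in the joint fit or without any 1 of the Atlantic replicates, with edgeR adjusted p of 0.07142 to 0.2198. Against a set floor of 3 counts in each untreated library, or 0.246 CPM, its mean in CS-Atlantic was 9.48 times the floor. However, 1 of the 3 cold libraries was itself at 0. Without CS-Atlantic replicate 1, which held 58 of the 78 cold reads, the mean was 3.71 times the floor. These ratios do not cover the spread between libraries.

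**Figure D2:**
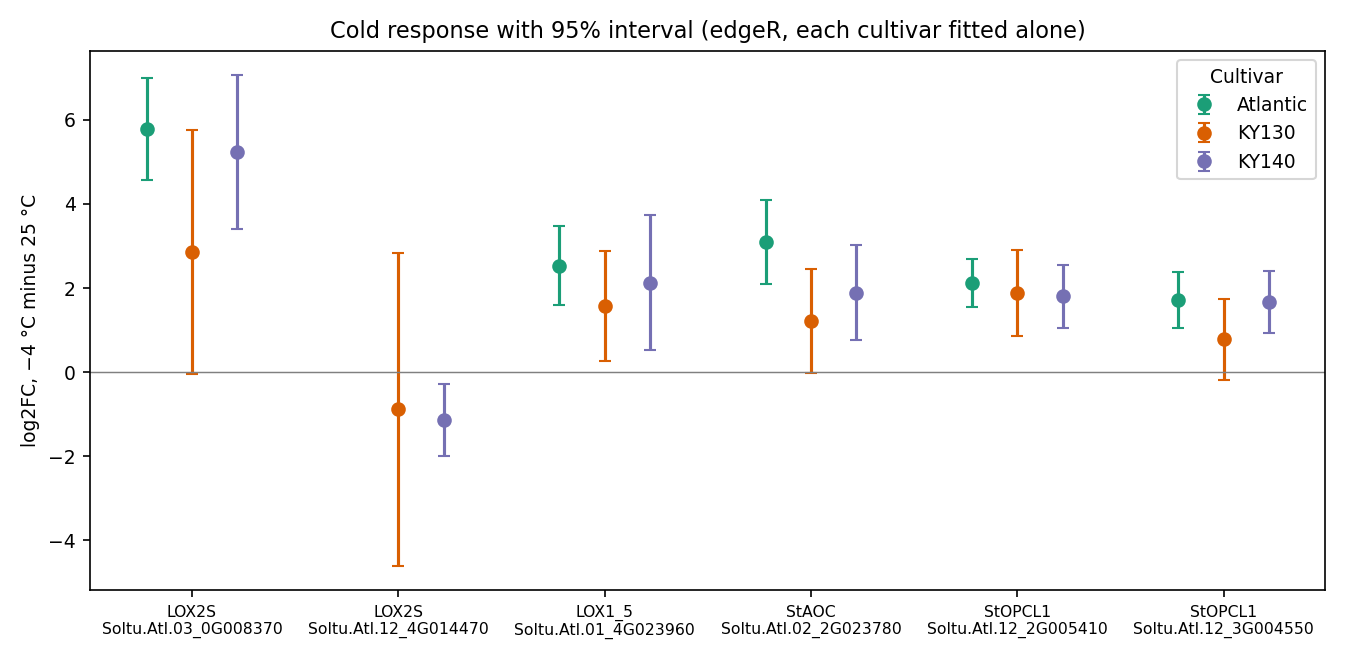
Fitted log2FC (−4°C minus 25°C) with 95% intervals for the 3 lipoxygenase genes, StAOC and 2 StOPCL1 genes in each cultivar, where n = 3 libraries per group. Soltu.Atl.12_4G014470 is the gene with values below 0 (−0.88 in KY130, −1.13 in KY140) and has no fitted value in Atlantic, and the KY130 intervals of both StLOX2S genes, StAOC and Soltu.Atl.12_3G004550 reach past 0.

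Because the 2 StLOX2S genes differed in direction in KY140, their shares of the summed reads of these 2 genes were compared. Reads of any other StLOX2S gene or copy were not counted. The share is that of reads, not of transcripts, since lengths were not used. In untreated KY140, Soltu.Atl.03_0G008370 gave 0.664% (exact 95% interval 0.181 to 1.69%), 2.84% (1.31 to 5.32%) and 4.99% (3.50 to 6.87%) of the reads of both genes. In CS-KY140 it gave 71.2% (68.1 to 74.2%), 56.6% (52.7 to 60.4%) and 80.0% (77.6 to 82.3%). The gene with most of the reads was therefore Soltu.Atl.12_4G014470 in every untreated KY140 library and Soltu.Atl.03_0G008370 in every cold one.

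In KY130 there were fewer reads, and 2 of the 3 cold libraries had most of them from Soltu.Atl.03_0G008370. The share of Soltu.Atl.03_0G008370 was 38.2% of 34 reads, 10.5% of 57 reads and 2.08% of 48 reads at 25°C. Under cold it was 100% of 47 reads, 94.9% of 39 reads and 46.7% of 105 reads. The lowest cold share lay above the highest untreated share, but the exact interval of the former, 36.9 to 56.7%, and that of the latter, 22.2 to 56.4%, overlapped. In Atlantic, all reads of these 2 genes in the untreated libraries came from Soltu.Atl.03_0G008370. There were only 3, 2 and 5 of them, which allows a share as low as 15.8% in the library with the fewest. In CS-Atlantic the share was 77.7% of 260 reads, 86.5% of 148 reads and 100% of 185 reads. These intervals cover counting error only, and PCR copies are not independent molecules.

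In KY140, cold and untreated libraries overlapped for the sum of both StLOX2S genes, though they did not for either gene alone. The KY140 sum was 43.2 ± 14.2 CPM (SD, n = 3) at 25°C and 69.7 ± 22.3 CPM under cold. Its libraries ran from 27.5 to 55.2 CPM against 48.7 to 93.1 CPM. The Atlantic sums were 0.276 ± 0.131 CPM at 25°C and 17.2 ± 5.27 CPM under cold, and those of KY130 were 3.61 ± 0.779 CPM and 5.64 ± 3.12 CPM. The KY130 libraries overlapped as well, at 2.81 to 4.36 CPM against 3.56 to 9.23 CPM, as did those of Soltu.Atl.12_4G014470 alone. Only in Atlantic did the sums of cold and untreated libraries not overlap, and no test of a difference between cultivars was made. Of single genes tested, 31.1% in Atlantic, 20.4% in KY130 and 20.8% in KY140 had no overlap, in either direction.

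**Figure D3:**
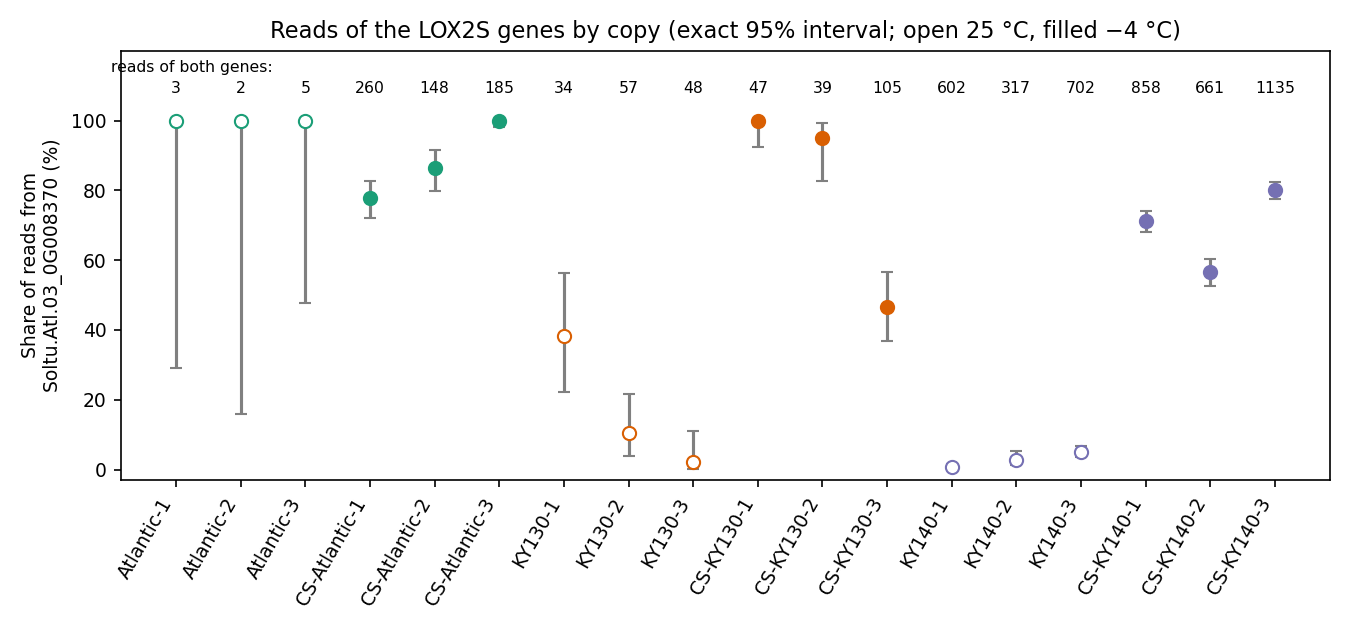
Share of the reads of both StLOX2S genes that came from Soltu.Atl.03_0G008370 in each library (%), with exact 95% intervals and the number of reads above each point. The share is under 5% in the 3 untreated KY140 libraries and 56.6 to 80.0% in the cold ones, and the untreated Atlantic libraries rest on 2 to 5 reads.

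Steps after the lipoxygenase in jasmonate synthesis were read from the 3 genes that the study names for them: StAOC Soltu.Atl.02_2G023780, which closes the ring of the precursor OPDA, and the StOPCL1 genes Soltu.Atl.12_2G005410 and, on another copy, Soltu.Atl.12_3G004550, which activate a later precursor before its chain is shortened. They too were chosen by the study on Atlantic and KY140. In those contrasts, 3 of 3 met the call as higher in Atlantic, against 5.79% of all genes tested, and 1 of 3, Soltu.Atl.12_2G005410, in KY140, against 0.886%. In KY130, edgeR called 0 of 3, against 0.928% of all genes, with 1 at an unadjusted p under 0.05, against 10.8%. DESeq2 called 1 of 3 in KY130, against 4.28%.

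Soltu.Atl.12_2G005410 was the gene in question in KY130. It had 10.7, 14.1 and 12.6 CPM in KY130 and 44.0, 70.5 and 21.4 CPM in CS-KY130. The libraries did not overlap, as was so, in either direction, for 20.4% of the genes tested in KY130. Its log2FC was 1.87 (SE 0.45, 95% interval 0.85 to 2.90), with an adjusted p of 0.1189 by edgeR and of 0.007192 by DESeq2. This StOPCL1 gene thus passed in KY130 with 1 of the 2 tools.

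StAOC had 16.6, 4.90 and 10.9 CPM in KY130 and 19.6, 39.0 and 15.6 CPM in CS-KY130, which overlap. Its log2FC in KY130 was 1.22 (SE 0.55), with an edgeR adjusted p of 0.4714. The other StOPCL1 gene, Soltu.Atl.12_3G004550, had 27.1, 12.4 and 29.6 CPM in KY130 and 22.2, 47.5 and 48.1 CPM in CS-KY130, with a log2FC of 0.78 (SE 0.43) and an edgeR adjusted p of 0.6112. In KY130 the log2FC was positive for all 3 of these genes, and for StLOX1_5 and Soltu.Atl.03_0G008370, and negative for Soltu.Atl.12_4G014470.

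In Atlantic and KY140, StAOC was at 8.55 ± 2.71 CPM (SD, n = 3) and 38.5 ± 5.85 CPM at 25°C, respectively. Under cold it reached 69.3 ± 44.5 CPM in the former and 147 ± 115 CPM in the latter. The wide SD of CS-KY140 came from replicate 3, with 279.6 CPM against 87.7 and 72.6 CPM in the others, the library that was also highest for StLOX1_5 and Soltu.Atl.03_0G008370. Soltu.Atl.12_2G005410 went from 14.0 ± 1.06 to 57.4 ± 16.6 CPM in Atlantic and from 23.9 ± 4.01 to 85.5 ± 27.4 CPM in KY140. In Atlantic, Soltu.Atl.12_3G004550 had 13.1 ± 3.42 CPM at 25°C and 41.0 ± 10.6 CPM under cold. The KY140 values of this gene were 33.9 ± 5.43 and 109 ± 39.1 CPM.

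**Figure D4:**
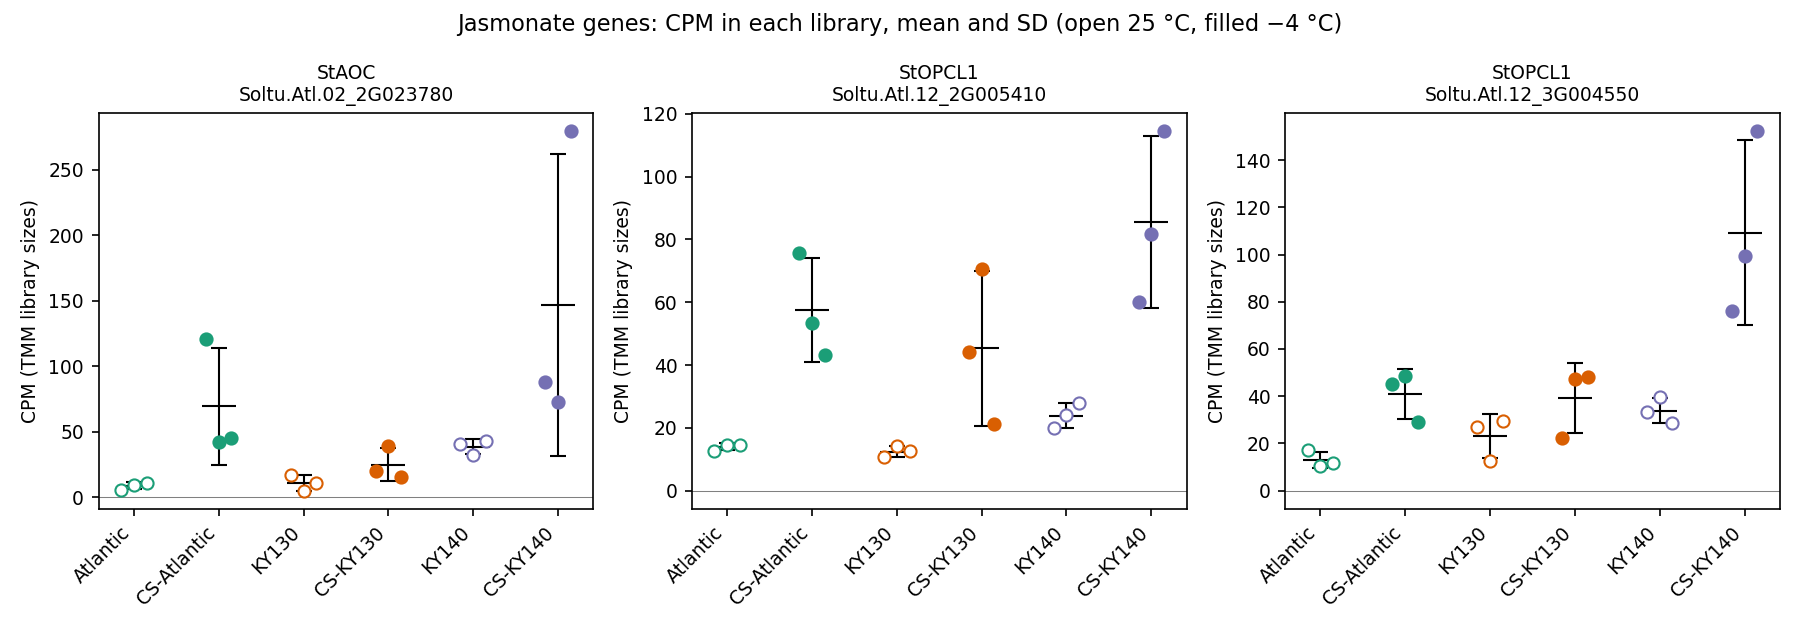
CPM (TMM library sizes, linear axis) of StAOC and 2 StOPCL1 genes in each of the 18 libraries, with open points at 25°C, filled points at −4°C, and lines for the mean and SD of 3 libraries. Cold libraries lie above untreated ones in Atlantic and KY140 for each gene, and in KY130 for Soltu.Atl.12_2G005410 alone. Over all genes tested, groups did not overlap, in either direction, for 31.1% in Atlantic, 20.4% in KY130 and 20.8% in KY140. Replicate 3 of CS-KY140 reaches 279.6 CPM for StAOC.

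Across the 18 libraries, the levels on a log2(CPM + 1) scale of Soltu.Atl.03_0G008370 and StLOX1_5 were related, with Pearson's r of 0.79, whereas r was 0.28 between the 2 StLOX2S genes and 0.16 between Soltu.Atl.12_4G014470 and StLOX1_5. With StAOC and the StOPCL1 genes, Soltu.Atl.03_0G008370 had r of 0.82 to 0.89 and StLOX1_5 of 0.73 to 0.77, and Soltu.Atl.12_4G014470 of 0.24 to 0.56. The libraries share cultivar and treatment, which move these values together, so the coefficients are a description of these libraries and have no test.

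Among 58984 genes with a mean of at least 1 CPM, the gene most like Soltu.Atl.03_0G008370 was Soltu.Atl.12_2G020270, with r of 0.97 over the 18 libraries, and 49 genes had r over 0.9. It had mean levels of 154 CPM in CS-KY140, 33.3 CPM in CS-Atlantic and 13.4 CPM in CS-KY130, and of 1.71 CPM or less in the untreated groups. For Soltu.Atl.12_4G014470 the most similar was a gene that carries only a number in the table, with r of 0.95 and 61 genes over 0.9, and it too was highest in untreated KY140, at 28.8 CPM against 9.68 CPM in CS-KY140. StLOX1_5 had no gene over 0.9, and the nearest was Soltu.Atl.04_4G020650, with r of 0.89. The deposited table gives no function for these 3 genes.

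The 6 identifiers nearest to each lipoxygenase gene, 3 on each side, held no gene that was called in any cultivar. Of the 6, those tested in Atlantic, KY130 and KY140 were 4, 3 and 5 around Soltu.Atl.03_0G008370, 1, 5 and 4 around Soltu.Atl.12_4G014470, and 2, 3 and 4 around StLOX1_5. Over all genes tested the called shares were 8.1%, 0.928% and 1.04%, so that few or no calls are the background among so few genes. For Soltu.Atl.03_0G008370 the log2FC of the tested neighbours ran from 0.03 to 2.22 in Atlantic, from −0.45 to 0.57 in KY130 and from −0.59 to 2.86 in KY140. The neighbours of StLOX1_5 ran from −0.69 to 0.50, from −0.49 to 1.82 and from −1.29 to 0.64. Of the neighbours of Soltu.Atl.12_4G014470, 1 followed it closely, with r of 0.93 over the 18 libraries. That gene, Soltu.Atl.12_4G014490, was singled out after its values were seen. It had 27.2 CPM in KY140 and 12.8 CPM in CS-KY140, at most 2.87 CPM in the KY130 groups and at most 0.390 CPM in the Atlantic groups, close to the pattern of its lipoxygenase neighbour.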

How the data were processed

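Counts as deposited by the authors are whole reads of each gene, not normalized, for 3 libraries in each of 6 groups, and 0 library columns were left unmapped. Libraries were strand-specific per the labels. For the aligner, counter, genome build and handling of strand and shared reads: not given in the sources used here. The treatment field reads 12C, but titles and methods give −4°C, which was used. Each cultivar was fitted alone with edgeR 4.0.16 (R 4.3.3, limma 3.58.1): filterByExpr with a minimum count of 10, TMM, quasi-likelihood test, Benjamini-Hochberg FDR over all genes tested. The script was tested on simulated data. The SE is the log2FC divided by the square root of F.

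Members and lists were chosen with earlier results of these data known. Named genes were the 3 members, StAOC and StOPCL1 as the study names them, and for each member the gene of highest Pearson's r (pseudocount 1). Alternatives were DESeq2 1.42.0, RLE and upper-quartile scaling, other filters, a joint fit of 18 libraries, a replicate block, FDR alone, each library left out, scaling by library totals, Spearman's rho and a pseudocount of 0.25. Ratios of group means without each library were added after seeing the data. The 3 identifiers had 0 matches in RefSeq's gene table, and no sequence is shown.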

Additional observations from a re-analysis of the deposited data

How the results depend on the processing

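In KY130, 0 lipoxygenase genes were called in the edgeR fit and in every alternative run, while DESeq2 called 1 of the StAOC and StOPCL1 genes in place of 0. The number of all genes called in KY130 was 452 by edgeR, 2084 by DESeq2, 1695 with no filter, 716 in the joint fit and 134 to 381 with a library left out. The Atlantic log2FC of Soltu.Atl.03_0G008370 was 5.49 to 6.18 with a library left out, highest without Atlantic replicate 3, and its KY140 log2FC was 4.79 to 6.51, highest without KY140 replicate 3. Its KY140 call was lost without KY140 replicate 2, CS-KY140 replicate 1 or CS-KY140 replicate 3, with edgeR adjusted p of 0.09761, 0.09742 and 0.08319. The calls of StLOX1_5 and of Soltu.Atl.12_4G014470 in Atlantic that changed are given beside their values above. With Spearman's rho, the genes most like Soltu.Atl.03_0G008370 and StLOX1_5 were Soltu.Atl.08_1G012390 (0.95) and Soltu.Atl.01_1G021040 (0.89). The cause of these changes was not tested.

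No source says that replicate numbers pair libraries, and deviations of same-numbered libraries correlated by −0.07 to 0.19. With the replicate block, 0 members were called in KY130, 378 of all genes were, and the KY130 log2FC was 3.31 for Soltu.Atl.03_0G008370, −3.33 for Soltu.Atl.12_4G014470 and 1.66 for StLOX1_5. Low counts limit both StLOX2S genes in Atlantic and KY130, where libraries held as few as 0 or 1 reads of them.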
